A study of Mus musculus with 36 samples.

Results

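Interferon-stimulated genes encode the antiviral proteins that a cell makes after an interferon binds its receptor. The set described here holds 35 such mouse genes out of 40354 genes in the count tables. They were taken as a list of symbols, not by their values, but with earlier results of these data known. All 35 were found by symbol in the tables. All 35 also passed the filter on low counts in every fit, and without the 120 hr libraries in the 3 fits where this was checked. By role they comprised 5 nucleic acid sensors, 6 genes of the OAS family and PKR, 4 IFIT genes, 8 restriction factors and effector enzymes, 3 genes of the ISG15 pathway, 3 PARP and Dtx3l genes, 4 signalling genes and regulators and 2 other induced genes.

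Type I interferons signal through the receptor chains Ifnar1 and Ifnar2 and the kinases Jak1 and Tyk2. These activate a complex that holds Stat2 and Irf9 and binds the interferon-stimulated response element (ISRE) in the promoters of its targets. Many of the induced proteins sense or attack viral RNA, and macrophages are known to hold a basal level of them without infection.

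The RNA-seq libraries followed B cell to macrophage transdifferentiation (BMT). Primary B cells from the bone marrow of C57BL/6J mice were infected with a retrovirus that carried C/EBPα fused to the estrogen receptor (ER) and a human CD4 marker, and hCD4+ cells were plated on inactivated mouse embryonic fibroblast feeders with IL-7. C/EBPα, a myeloid transcription factor, was then activated with estradiol (E2) in medium with IL-7, IL-3, FLT-3, mCSF-1 and mSCF. The medium was exchanged every 2 days for one that lacked IL-7. The construct was wild-type C/EBPα (C/EBPαWT) or carried alanine (C/EBPαR35A) or lysine (C/EBPαR35K) in place of arginine 35. Cells were taken at 0 hr post induction (hpi), at 1, 3 and 6 hpi, at 18 hpi and at 120 hpi. All 18 groups (3 constructs by time) shared the infection, the feeders and the ER fusion, so that each construct was compared with its own uninduced cells at 0 hpi and no group lacked the virus. No group received E2 without C/EBPα. In a change from 0 hpi, the effect of C/EBPα thus cannot be told apart from that of E2, the medium or time in culture. Genes said to be raised or lowered by a construct were higher or lower than at its own 0 hpi. The age of the mice was not given in the sources used here. Cells were called B cells by the labels up to 18 hr and macrophages at 120 hr. Each group had 2 libraries, 36 in all, with 13044456 to 23131776 counts in genes. The replicates were biological ones per the study's methods. The p-values measure the spread between the 2 libraries of a group, pooled over all groups of a fit. This spread was small, with a biological coefficient of variation of 3.17% in the fit of C/EBPαWT and C/EBPαR35A libraries. The chi-square per degree of freedom between replicates was 1.104 to 11.87 over the groups, where counting noise alone gives about 1. Small p-values therefore rest on closely matching libraries.

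The labels were checked against marker genes. The summed level of 12 macrophage markers, in CPM (a count as a share of its library, scaled), was 144 to 148 in C/EBPαWT cells at 0 hpi, 1143 to 1152 at 1 hpi and 24680 to 24870 at 120 hpi. The 12 B cell markers summed to 4322 to 4382 CPM at 0 hpi, 2020 to 2035 at 1 hpi, 398 to 401 at 18 hpi and 191 to 198 at 120 hpi in C/EBPαWT cells. At 1 hpi they summed to 633 to 639 CPM with C/EBPαR35A and to 1130 to 1137 with C/EBPαR35K. Samples of 1 to 18 hpi, labelled B cells, thus held less B cell marker RNA than those of 0 hpi. RNA of other cells was also present. The 15 fibroblast markers of the feeder layer summed to 7690 to 7874 CPM at 0 hpi and to 19060 to 19550 at 18 hpi in C/EBPαWT cells, of which Fn1, which macrophages also express, made up 11650 to 12000 CPM at 18 hpi. The sum of the other 14 fibroblast markers went from 7405 to 7556 CPM at 18 hpi to 230 to 264 at 120 hpi. The sum of 8 neutrophil markers went from 58.6 to 60.1 CPM at 0 hpi to 1.97 to 2.64 at 1 hpi. In bulk RNA, more cells of a type and more RNA per cell cannot be told apart, and the part these cells played in the levels below was not tested.

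The promoters of the set were searched for short motifs, which the choice of genes did not use. Promoters were taken from RefSeq (GRCm38.p6, 250 bases before to 50 bases after each start), where 26 of the 35 genes matched and gave 30 promoters. The core of the ISRE, TTTC repeated after a gap of 2 bases on either strand, occurred in 16 of the 30 promoters (53.3%) and in 1131 of all 32851 promoters (3.44%). The interferon-gamma activated site TTCNNNGAA, the same on both strands, occurred in 7 of 30 (23.3% against 8.3% of all), and the ETS-IRF composite (GGAA and GAAA with a gap of 2 bases, on either strand), which can overlap the ISRE core, in 3 (10.0% against 2.72%). The C/EBP core TTGCNNAA, on either strand, occurred in 0 of 30 member promoters and in 10.8% of all promoters. A match is a description of these letters and not a binding site. The 160 bases before the start of 6 genes are printed 5′ to 3′ with the ISRE core in capitals, to show genes that differ in the course of their RNA. Isg15, the ubiquitin-like modifier, lies on the minus strand (chr4:156200819-156200978) and carries 3 overlapping matches that begin 78, 72 and 66 bases before the start. Rsad2, the antiviral enzyme viperin (minus strand, chr12:26456453-26456612), and Oas3, which makes the second messenger of RNase L (minus strand, chr5:120777660-120777819), carry 1 each. Ifit3, an RNA-binding partner of Ifit1 (plus strand, chr19:34583369-34583528), carries 2. Trim30a, a negative regulator of Toll-like receptor signalling (minus strand, chr7:104465194-104465353), carries 1, and Oasl1, a catalytically inactive OAS relative (plus strand, chr5:114923080-114923239), carries none.
Isg15: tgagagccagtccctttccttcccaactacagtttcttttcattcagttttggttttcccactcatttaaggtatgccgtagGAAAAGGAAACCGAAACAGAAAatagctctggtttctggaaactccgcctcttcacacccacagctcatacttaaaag
Rsad2: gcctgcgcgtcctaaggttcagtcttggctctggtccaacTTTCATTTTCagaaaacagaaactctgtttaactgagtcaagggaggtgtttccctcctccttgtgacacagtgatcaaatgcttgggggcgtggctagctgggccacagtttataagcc
Oas3: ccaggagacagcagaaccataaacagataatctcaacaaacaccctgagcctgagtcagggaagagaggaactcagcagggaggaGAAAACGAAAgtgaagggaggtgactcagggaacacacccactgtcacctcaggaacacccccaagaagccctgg
Ifit3: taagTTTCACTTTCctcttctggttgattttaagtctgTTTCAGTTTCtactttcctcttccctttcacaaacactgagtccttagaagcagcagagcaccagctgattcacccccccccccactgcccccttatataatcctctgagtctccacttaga
Trim30a: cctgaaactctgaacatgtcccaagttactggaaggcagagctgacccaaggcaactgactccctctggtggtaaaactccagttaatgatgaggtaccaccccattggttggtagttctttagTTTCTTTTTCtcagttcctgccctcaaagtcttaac
Oasl1: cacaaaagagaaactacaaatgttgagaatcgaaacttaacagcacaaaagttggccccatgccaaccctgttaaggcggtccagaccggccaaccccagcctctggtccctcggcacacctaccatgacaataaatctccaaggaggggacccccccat

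Before induction the levels of the set spanned a wide range. Compared per kilobase of exon, Ifitm3, a membrane protein that blocks viral entry, was highest at 222 CPM per kilobase in C/EBPαWT cells at 0 hpi, followed by the tetherin gene Bst2 at 20.4. The PKR gene Eif2ak2, a kinase that stops translation on double-stranded RNA, stood at 10.6 CPM per kilobase. Oas3 (0.0299), Oas2 (0.0471), Mx1 (0.0641) and Rsad2 (0.0721) were lowest. Each of these 4 genes had 1 to 8 counts per library at 0 hpi in every construct. No difference between the constructs was called in the set before induction: 0 of the 35 genes were called between C/EBPαR35A and C/EBPαWT at 0 hpi, where 0% of 16988 genes were called. Here and below a gene was called at a change of 1.5-fold or more with an adjusted p of at most 0.05 in edgeR. At an unadjusted p under 0.05, edgeR gave 1 member (Dtx3l) and 1618 genes in all, and DESeq2 called 0 members. Between C/EBPαR35K and C/EBPαWT at 0 hpi 0 members were called as well (0% of 16979 genes), with 1 member (Ifit3) and 976 genes in all at an unadjusted p under 0.05, and 0 members with DESeq2. The R35K libraries were deposited in tables of their own, so construct and deposit cannot be told apart there.

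After 1 hr of induction 11 members were higher and 0 lower in C/EBPαWT cells (10.7% of all genes higher and 9.27% lower, 19.9% together). At 3 hpi 11 were higher and 6 lower (12% and 11.5%, 23.5% together). The counts were 8 and 6 at 6 hpi (15.1% and 14.7%, 29.8% together), and 9 and 12 at 18 hpi (23.9% and 23.2%, 47.1% together). The share of members higher thus stood above the background at 1 hpi and close to it at 18 hpi. The median log2 change of the set was 0.23, -0.02, -0.06 and 0.15 at these times, and it was 3.65 at 120 hpi, when all 35 genes were higher (23.1% of all genes higher and 40.2% lower, 63.3% together, median over all genes -0.36). The plot of genes called by time shows these counts.

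**Figure D1:**
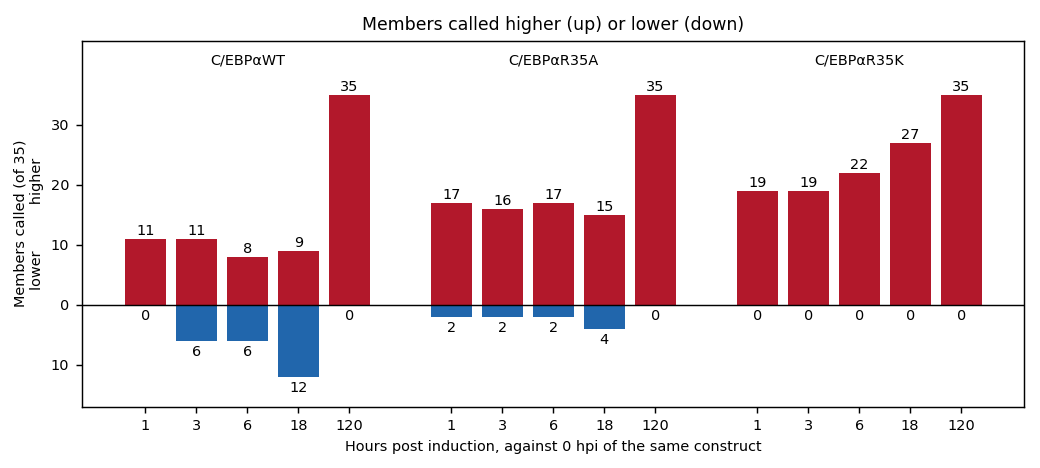
Number of the 35 genes called higher (red, upward) or lower (blue, downward) than at 0 hpi of the same construct, by hours post induction. In C/EBPαWT cells the number lower reached 12 at 18 hpi, in C/EBPαR35K cells it was 0 at each time, and all 35 were higher at 120 hpi in each construct.

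Up to 18 hpi some members were called higher and others lower in C/EBPαWT cells, and 0 genes were called both ways. Those called higher at 1 or more of the 4 early times were 12 members: Ifih1, Zbp1, Oas2, Oas3, Oasl1, Oasl2, Ifit1, Mx1, Ifitm3, Rsad2, Isg15 and Rtp4. Of these, 7 (Ifih1, Oas2, Oas3, Oasl1, Mx1, Ifitm3 and Rsad2) were higher at all 4 times. The 13 that were lower at 1 or more times were Dhx58, Ifit2, Mx2, Cmpk2, Samd9l, Herc6, Parp9, Parp14, Dtx3l, Stat2, Trim30a, Ifi44 and Xaf1. The other 10 were called at none. The share of all genes called at any of the 4 times was not counted. At 18 hpi alone 23.9% of all genes were higher and 23.2% lower, so these counts may lie near the background. By 120 hpi the median log2 change of the early risers was 5.91, that of the early fallers 2.65 and that of the uncalled genes 3.82. The classes and the change at 120 hpi use the same 0 hpi libraries. A low value at 0 hpi thus raises both, and these medians are a description only. The early rise was present at 1 hpi and was followed by little movement: between 1 and 3 hpi 1 member was called (Oas1a, lower, 1.04% of all genes called) and between 3 and 6 hpi 0 were (1.04%) with edgeR or DESeq2, with 8 members at an unadjusted p under 0.05.

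**Figure D2:**
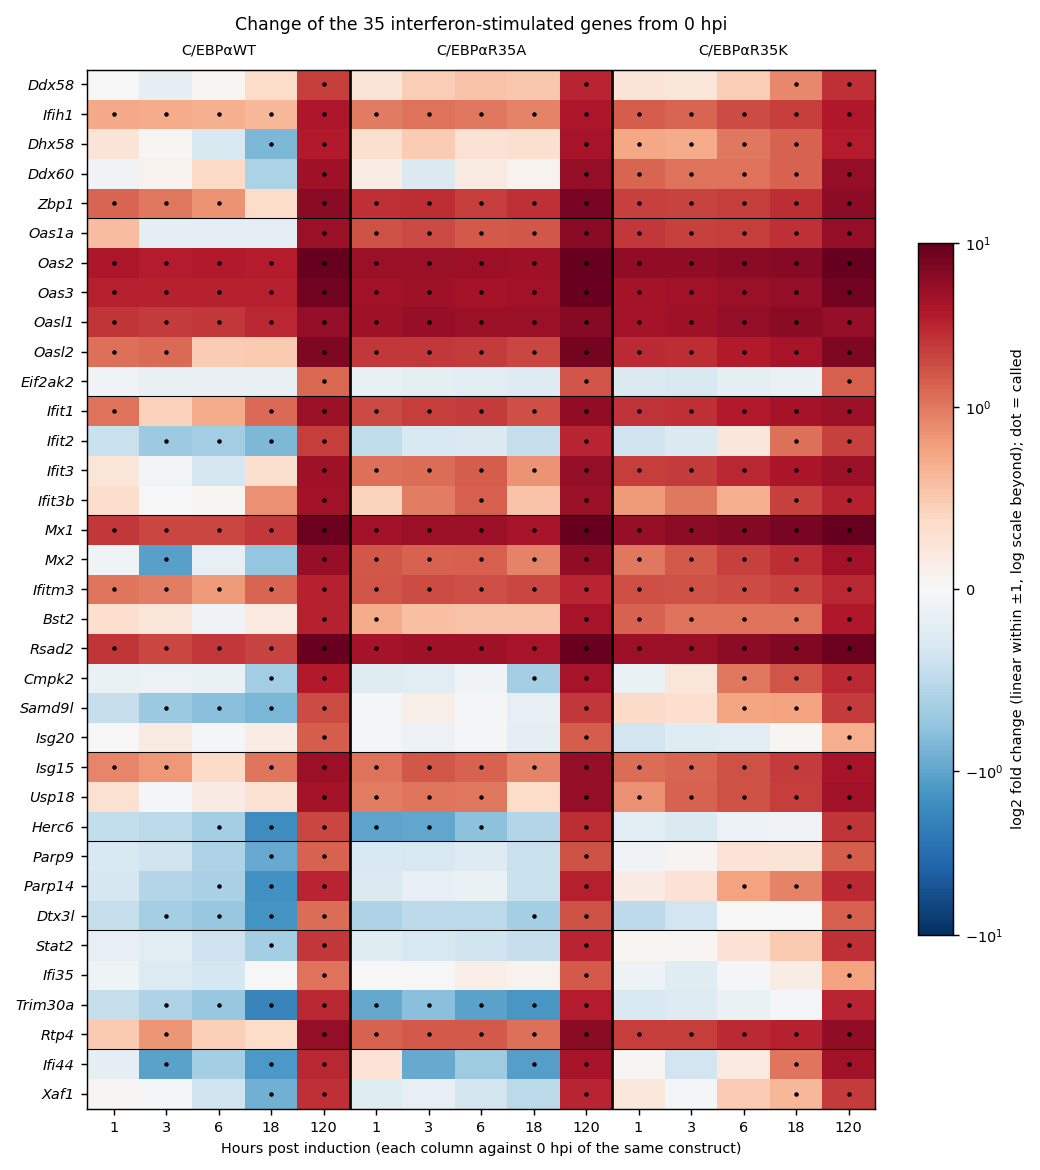
Log2 fold change from 0 hpi of the same construct for the 35 genes (rows, grouped by role as in the text) at each later time (columns), with a colour scale that is linear within ±1 and logarithmic beyond. Dots mark called genes. The blue cells of C/EBPαWT at 18 hpi (12 genes called lower) are absent at 18 hpi in C/EBPαR35K, where 27 genes were called higher.

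Among the nucleic acid sensors, Ddx58 (RIG-I, a receptor for viral RNA) was the most abundant per kilobase. In C/EBPαWT cells it stood at 21.6 and 22.2 CPM at 0 hpi, 19.8 and 22.9 at 1 hpi, 20.0 and 18.9 at 3 hpi, 21.5 and 24.1 at 6 hpi, 27.7 and 28.2 at 18 hpi and 115 and 114 at 120 hpi. All libraries of the first 6 hr lay between 18.9 and 24.1 CPM, those of 18 hpi lay above all earlier ones without reaching 1.5-fold (log2 change 0.35 ± 0.07 SE), and those of 120 hpi lay far above. C/EBPαR35A cells reached 203 and 207 CPM at 120 hpi and C/EBPαR35K cells 153 and 150. Ifih1 (MDA5, which binds long double-stranded RNA) was called at each time, with a log2 change of 0.73 ± 0.15 at 1 hpi (adjusted p = 3.7e-05) and 4.02 at 120 hpi. Its calls at 3, 6 and 18 hpi, at 0.63 to 0.70 close to the threshold, were each lost when some libraries were left out (WT 0 hpi replicate 1 for 6 and 18 hpi, WT 3 hpi replicate 2, WT 6 hpi replicate 2 and WT 18 hpi replicate 1). Zbp1, a sensor of Z-form nucleic acids that can start necroptosis, stood at 1.1 and 1.14 CPM at 0 hpi, 3.02 and 2.52 at 1 hpi, 2.42 and 2.09 at 3 hpi, 1.70 and 2.40 at 6 hpi and 1.40 and 1.45 at 18 hpi in C/EBPαWT cells. Its early rise was thus a passing one, and at 18 hpi it was not called (log2 change 0.35 ± 0.32, adjusted p = 0.338), before 94.4 and 94.2 CPM at 120 hpi. Dhx58 (LGP2, a regulator of both RIG-I-like receptors) was lower at 18 hpi (log2 change -0.85 ± 0.17) and higher at 120 hpi (3.64).

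The OAS family, whose members make 2′-5′ oligoadenylates that switch on RNase L, held the largest change of the set. Oas2 was at 0.206 and 0.214 CPM at 0 hpi in C/EBPαWT cells, 3.35 and 3.50 at 1 hpi, 2.17 and 2.84 at 3 hpi, 3.21 and 2.52 at 6 hpi, 2.49 and 2.6 at 18 hpi and 193 and 187 at 120 hpi. These are steps, with no overlap between 0 hpi, the plateau from 1 to 18 hpi and 120 hpi. With 3 and 3 counts at 0 hpi, the ratio at 1 hpi was 16.4 (95% counting interval 7.28 to 45.5) and at 120 hpi 906 (416 to 2470). Such intervals cover counting error only. Oas3 behaved likewise, from 0.137 and 0.285 CPM at 0 hpi to 2.17 and 2.35 at 1 hpi, 2.3 and 2.26 at 18 hpi and 87.6 and 91.7 at 120 hpi, a ratio of 10.8 (4.74 to 30.4) at 1 hpi and 428 (196 to 1170) at 120 hpi. Oasl1, which is known to restrain translation of the Irf7 message, climbed from 0.891 and 0.570 CPM at 0 hpi to 3.68 and 4.58 at 1 hpi and to 6.19 and 5.90 at 18 hpi. Oasl1 and Isg15 were the 2 members called higher between 6 and 18 hpi in C/EBPαWT cells (3.28% of all genes higher in that step). Oasl2 stood at 0.686 and 1.21 CPM at 0 hpi, 2.04 and 2.01 at 1 hpi (a call lost without WT 0 hpi replicate 1) and 1.53 and 1.16 at 18 hpi, when the groups overlapped, and at 159 and 159 at 120 hpi. Eif2ak2 was flat, within 48.4 to 54.8 CPM in the 10 C/EBPαWT libraries up to 18 hpi, and stood at 141 and 148 at 120 hpi (log2 change 1.28 ± 0.05). Oas1a shares 57.6% of its 50-base windows with other genes, chiefly its tandem copies, so its counts are uncertain.

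The IFIT genes, which bind viral RNA ends, did not move as a block. Ifit1 was higher at 1 hpi (log2 change 1.08 ± 0.35) and at 18 hpi (1.21 ± 0.34) in C/EBPαWT cells. Both calls were lost without WT 0 hpi replicate 2 or without replicate 2 of the later time, and the values ranged from 0.65 to 1.69 at 1 hpi and from 0.79 to 1.82 at 18 hpi with 1 library left out. Ifit2, a neighbour of Ifit1 on chromosome 19, was at 17.8 and 20.4 CPM at 0 hpi, 14.3 and 13.7 at 1 hpi, 12.2 and 11.4 at 3 hpi, 11.2 and 13.1 at 6 hpi, 10.4 and 10.7 at 18 hpi and 99.5 and 101 at 120 hpi. Every C/EBPαWT library from 1 to 18 hpi lay below both libraries of 0 hpi, with a log2 change of -0.86 ± 0.10 at 18 hpi (adjusted p = 5.66e-11). Ifit3 was not called up to 18 hpi, at 1.44 and 1.14 CPM at 0 hpi and 1.79 and 1.45 at 18 hpi, and it reached 37.8 and 38.3 at 120 hpi. Ifit3 and Ifit3b share 51.2% and 45.0% of their 50-base windows with other genes, and reads could be split between them.

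Of the restriction factors, Mx1 and Rsad2 rose at 1 hpi and held a plateau. Mx1 stood at 0.343 and 0.142 CPM at 0 hpi, 1.31 and 1.38 at 1 hpi, 0.956 and 1.04 at 3 hpi, 1.05 and 0.983 at 6 hpi, 1.40 and 1.33 at 18 hpi and 161 and 159 at 120 hpi in C/EBPαWT cells. The ratio was 5.51 at 1 hpi (2.46 to 14.5) and 654 at 120 hpi (317 to 1630). C57BL/6 mice are known to carry defective Mx alleles, and Mx2 is annotated as a polymorphic pseudogene, so these values are RNA levels only. Mx2, the neighbour of Mx1 on chromosome 16, was at 0.891 and 0.926 CPM at 0 hpi and 0.985 and 0.745 at 1 hpi, was called lower at 3 hpi alone (log2 change -1.08 ± 0.47, 0.574 and 0.290 CPM), a call lost with DESeq2 and in 9 of the 24 fits with 1 library left out, and stood at 38.4 and 40.0 CPM at 120 hpi.

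Rsad2 was at 0.411 and 0.214 CPM at 0 hpi, 1.51 and 2.01 at 1 hpi, 1.21 and 1.39 at 3 hpi, 1.83 and 1.54 at 6 hpi, 1.02 and 1.68 at 18 hpi and 212 and 226 at 120 hpi. Its ratio to 0 hpi was 5.65 at 1 hpi (2.78 to 13) and 695 at 120 hpi (366 to 1520). Cmpk2, a mitochondrial nucleotide kinase whose start lies 12752 bases from that of Rsad2 in the opposite direction, was lower at 18 hpi (log2 change -0.67 ± 0.19) while Rsad2 was higher (2.09 ± 0.44). The call of Cmpk2 was lost with DESeq2. Ifitm3, the most abundant member, stood at 144 and 157 CPM at 0 hpi, 306 and 305 at 1 hpi, 288 and 304 at 3 hpi, 264 and 268 at 6 hpi, 375 and 369 at 18 hpi and 1680 and 1480 at 120 hpi. No library of a later time overlapped 0 hpi, and the log2 change at 1 hpi was 1.04 ± 0.04 (adjusted p = 5.89e-27). Fibroblasts also express Ifitm3.

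In the ISG15 pathway, Isg15 stood at 1.58 and 1.99 CPM at 0 hpi, 3.74 and 2.98 at 1 hpi, 2.93 and 3.36 at 3 hpi, 2.29 and 2.33 at 6 hpi, 3.89 and 3.53 at 18 hpi and 56.6 and 57.6 at 120 hpi in C/EBPαWT cells. It was called at 1 hpi, at 3 hpi (a call lost without WT 0 hpi replicate 1) and at 18 hpi but not at 6 hpi (log2 change 0.36 ± 0.25). Usp18, the protease that removes Isg15 and dampens receptor signalling, was not called until 120 hpi (4.36 ± 0.15). Herc6, the ligase that attaches Isg15 in mice, was lower at 6 hpi (a call lost without WT 0 hpi replicate 2) and at 18 hpi (log2 change -1.57 ± 0.18).

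All 3 PARP and Dtx3l genes were lower at 18 hpi, when 23.2% of all genes were. Parp14, a mono-ADP-ribosyltransferase, was at 41.1 and 39.1 CPM at 0 hpi, 30.9 and 32.3 at 1 hpi, 28.4 and 26.4 at 3 hpi, 26.0 and 26.8 at 6 hpi and 14.9 and 13.8 at 18 hpi, with a log2 change of -1.49 ± 0.07 (adjusted p = 7.84e-24). It then stood at 370 and 382 CPM at 120 hpi. Dtx3l, the ubiquitin ligase that pairs with Parp9, fell to -1.41 ± 0.09 at 18 hpi, and Parp9 to -0.96 ± 0.09. Dtx3l and Parp9 lie head to head on opposite strands of chromosome 16 and overlap by 682 bases, so reads there cannot be assigned if the strand was not used. The largest fall was that of Trim30a, at 24.3 and 28.3 CPM at 0 hpi, 18.5 and 19.4 at 1 hpi, 18.0 and 17.0 at 3 hpi, 16.2 and 16 at 6 hpi, 5.87 and 7.64 at 18 hpi and 219 and 244 at 120 hpi, a log2 change of -1.95 ± 0.12 at 18 hpi and 3.01 ± 0.07 at 120 hpi. Stat2, the transducer of type I signals, followed the same course less steeply (-0.64 ± 0.08 and 2.39 ± 0.06), with the call at 18 hpi lost with DESeq2. Xaf1, a pro-apoptotic protein, was at 6.03 and 6.48 CPM at 0 hpi, 3.83 and 2.84 at 18 hpi and 45.5 and 40.3 at 120 hpi. Between 6 and 18 hpi the 5 genes called lower were Ddx60, Herc6, Parp14, Dtx3l and Trim30a, with 10% of all genes called lower in that step.

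**Figure D3:**
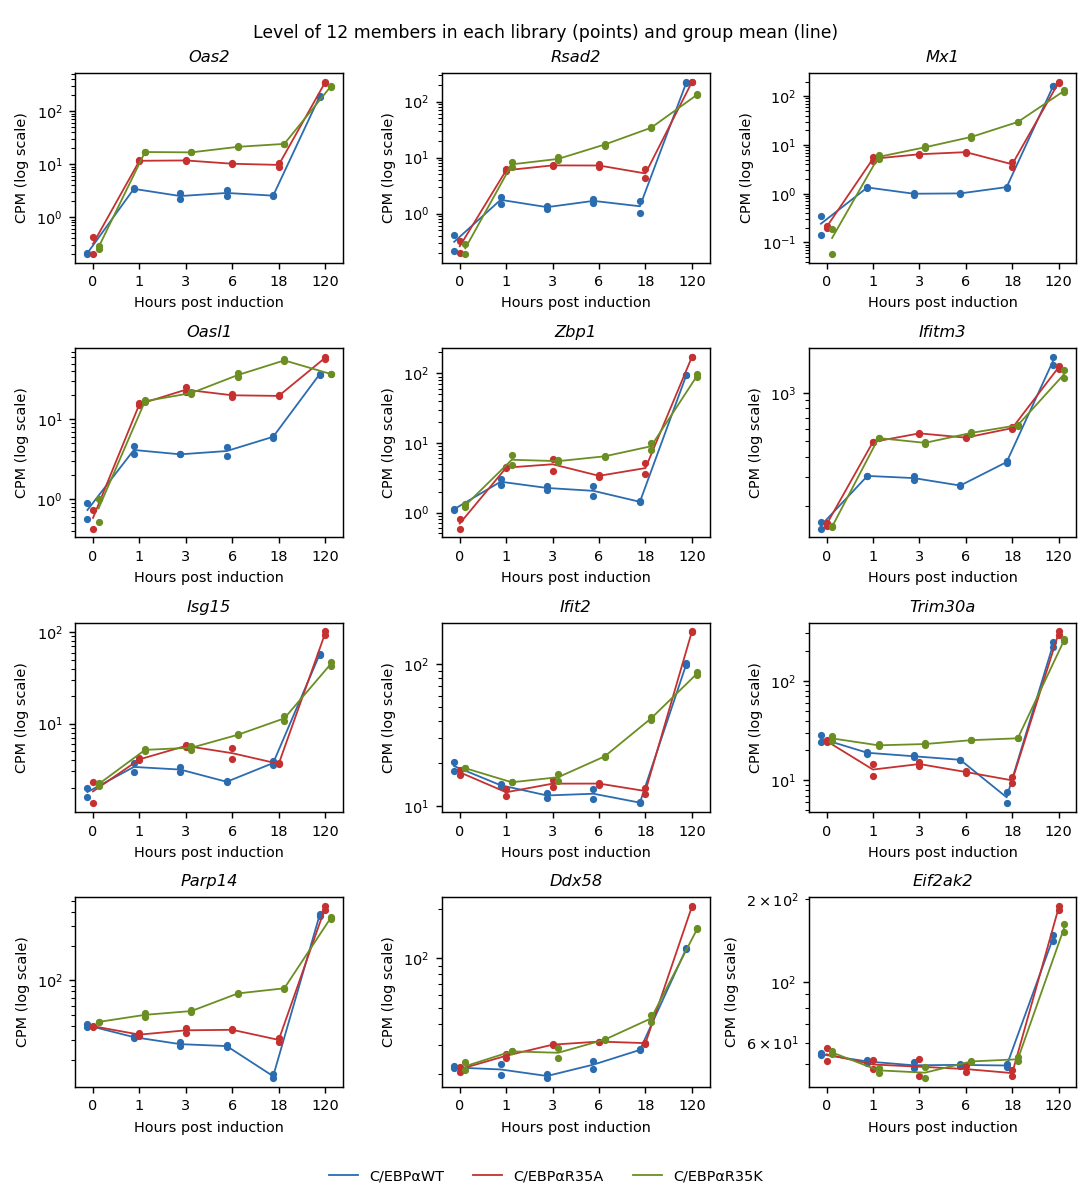
Level (CPM, log scale) of 12 of the genes in each of the 36 libraries (points, 2 per group) and the group mean (line) against hours post induction (evenly spaced, not to scale). Oas2, Rsad2, Mx1 and Oasl1 step up by 1 hpi with C/EBPαWT lowest from 1 to 18 hpi, Trim30a and Parp14 dip to 5.87 and 13.8 CPM at 18 hpi in C/EBPαWT, and Eif2ak2 stays flat until 120 hpi.

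C/EBPαR35A raised more of the set and raised it further. At 1 hpi 17 members were higher and 2 lower (18.3% and 18.9% of all genes, 37.3% together), with 16 and 2 at 3 hpi (17.9% and 19%, 36.8% together) and 17 and 2 at 6 hpi (18.5% and 19.2%, 37.7% together). The counts were 15 and 4 at 18 hpi (21% and 21.6%, 42.6% together) and 35 and 0 at 120 hpi (24.2% and 39%, 63.1% together). The median log2 change of the set was 0.43 at 1 hpi and stayed between 0.51 and 0.58 from 3 to 18 hpi. The members lower at 1 hpi were Herc6 and Trim30a. All 11 genes raised by C/EBPαWT at 1 hpi were also raised by C/EBPαR35A, and the further 6 were Oas1a, Ifit3, Mx2, Bst2, Usp18 and Rtp4.

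The difference between the constructs was tested as the difference of their changes from 0 hpi. At 1 hpi 8 members changed more with C/EBPαR35A and 0 less (14% of all genes called in either direction), namely Zbp1, Oas1a, Oasl1, Oasl2, Mx1, Mx2, Ifitm3 and Rsad2. Oasl1 stood at 0.738 and 0.426 CPM at 0 hpi in C/EBPαR35A cells, 15.8 and 15.2 at 1 hpi, 21.9 and 25.2 at 3 hpi, 19.3 and 20.8 at 6 hpi, 19.4 and 20.0 at 18 hpi and 61.2 and 57.0 at 120 hpi. Every library from 1 to 18 hpi lay above every C/EBPαWT library of those times, and the excess of the log2 change was 2.23 ± 0.46 at 1 hpi (adjusted p = 9.14e-05). Mx1 reached 5.69 and 4.71 CPM at 1 hpi in C/EBPαR35A cells, 7.33 and 6.92 at 6 hpi and 4.56 and 3.48 at 18 hpi, with an excess of 2.13 ± 0.73 at 1 hpi (adjusted p = 0.0331). Rsad2 reached 6.14 and 5.74 CPM at 1 hpi (excess 1.92 ± 0.70, adjusted p = 0.0282), and Mx2 2.79 and 1.72 (1.64 ± 0.52, adjusted p = 0.0107). Zbp1 reached 4.29 and 4.53 CPM (1.34 ± 0.43, adjusted p = 0.011) and Oasl2 6.36 and 5.91 (1.30 ± 0.42, adjusted p = 0.013). Part of the excess of Zbp1 lay in its starting level. Its log2 difference in level between C/EBPαR35A and C/EBPαWT was -0.70 at 0 hpi (not called) and 0.64 at 1 hpi. Ifitm3, at 499 and 492 CPM, had the smallest excess of the 8 but the smallest error (0.63 ± 0.06). Oas2 and Oas3, at 11.8 and 11.4 and at 5.52 and 6.03 CPM, lay above the C/EBPαWT libraries of 1 hpi, but with few counts at 0 hpi their excess did not pass (1.09 ± 0.70, adjusted p = 0.306, and 1.13 ± 0.75, adjusted p = 0.312). Of the 8 calls, that of Oasl1 held with any 1 library left out, and the other 7 did not. The excess of Mx1 ranged from 1.38 to 2.61 and its call was lost without WT 0 hpi replicate 1, R35A 1 hpi replicate 1 or either R35A library of 0 hpi. That of Rsad2 ranged from 1.38 to 2.31, with the call lost without WT 0 hpi, WT 1 hpi or R35A 0 hpi replicate 1. That of Mx2 ranged from 1.1 to 2.26, with the call lost without WT 1 hpi replicate 2, R35A 0 hpi replicate 2 or R35A 1 hpi replicate 1. The calls of Ifitm3, Oas1a and Oasl2 were lost without WT 0 hpi replicate 2, and that of Zbp1 without R35A 0 hpi replicate 2.

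More members passed this test at later times. The number was 13 at 3 hpi (13% of all genes called) and 14 by 6 hpi (10.3%). It was 13 after 18 hr (8.36%) and 12 after 120 hr (14.5%), with 0 changing less at any time. At 6 hpi it included Ifit1, Ifit3, Bst2, Samd9l, Isg15 and Rtp4, and it was 8 without WT 0 hpi replicate 1 and 9 without WT 6 hpi replicate 1. At 18 hpi it held 7 of the 8 genes of 1 hpi (all but Mx1), in a test that used the same 0 hpi libraries. Parp14, Dtx3l, Trim30a, Herc6, Dhx58 and Samd9l, which had fallen in C/EBPαWT cells, were also included (the call of Trim30a was lost with DESeq2). Of the 24 fits with 1 library left out, the call at 18 hpi was lost in 5 for Mx2, 4 for Rsad2, 3 for Trim30a, 2 for Oasl2 and 1 for Oasl1. Parp14 stood at 28.9 and 30.8 CPM at 18 hpi in C/EBPαR35A cells, between its own 40.0 and 39.0 at 0 hpi and the C/EBPαWT values of 18 hpi. In the direct comparison of levels, C/EBPαR35A was higher for 14 members and lower for 2 at 1 hpi (8.51% and 10.8% of all genes), for 18 and 1 at 3 hpi (7.95% and 9.04%), and for 20, 20 and 21 with 0 lower at 6, 18 and 120 hpi (6.2%, 6.9% and 12.4%). At 120 hpi these were 4 of 5 sensors, 5 of 6 OAS family and PKR genes, 4 of 4 IFIT genes and 3 of 3 ISG15 pathway genes, but 1 of 8 restriction factors (Bst2) and 0 of 3 PARP and Dtx3l genes. Isg15, for example, stood at 103 and 92.3 CPM against 56.6 and 57.6. With a 2-fold threshold the count at 120 hpi was 3. Fibroblast markers moved the same way at 120 hpi, with 10 of 15 higher and 1 lower in C/EBPαR35A cells (12.4% and 6.38% of all genes). The sum of those other than Fn1 was 783 to 798 CPM against 230 to 264 with C/EBPαWT. Their part in the difference was not tested.

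C/EBPαR35K raised the set further as time went on. It lowered 0 members at any time. It raised 19 at 1 hpi (15.5% of all genes higher and 17.4% lower, 32.9% together), 19 by 3 hpi (15.9% and 16.8%, 32.7% together) and 22 by 6 hpi (16.3% and 17.8%, 34.1% together). The number higher was then 27 after 18 hr (18.4% and 20.5%, 39% together) and all 35 after 120 hr (25.4% and 38.5%, 63.8% together). The median log2 change of the set rose from 0.86 at 1 hpi to 1.63 at 18 hpi. Every member that C/EBPαWT or C/EBPαR35A raised at 1, 3 or 18 hpi was also called higher in C/EBPαR35K cells, and at 6 hpi all 8 of C/EBPαWT and 16 of the 17 of C/EBPαR35A were. Mx1 shows the course, at 0.058 and 0.189 CPM at 0 hpi, 5.24 and 6.14 at 1 hpi, 8.56 and 9.35 at 3 hpi, 13.7 and 15.5 at 6 hpi, 30.1 and 29.1 at 18 hpi and 124 and 135 at 120 hpi. From 1 and 3 counts at 0 hpi its ratio was 245 at 18 hpi (95.4 to 902). Rsad2 followed at 6.88 and 8.25 CPM at 1 hpi, 17.8 and 16.3 at 6 hpi and 34.7 and 33.4 at 18 hpi, with a ratio to 0 hpi of 141 (71.4 to 328) at 18 hpi.

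Between 3 and 6 hpi 10 members rose further in C/EBPαR35K cells (0.773% of all genes higher in that step) and between 6 and 18 hpi 11 did (1.12%). Those of the second step were Oasl1, Oasl2, Ifit1, Ifit2, Ifit3, Ifit3b, Mx1, Mx2, Rsad2, Cmpk2 and Isg15. In C/EBPαR35A cells 0 members rose in these steps (0.0471% and 1.52% of all genes; 0 also with DESeq2 from 3 to 6 hpi, and 4 members in either direction at an unadjusted p under 0.05), and Ifit1, Ifit3, Mx1 and Usp18 fell between 6 and 18 hpi (2.76%). Oasl1 reached 53.3 and 56.2 CPM at 18 hpi with C/EBPαR35K and then stood at 37.0 and 37.0 at 120 hpi, the 1 member that was called lower from 18 to 120 hpi (log2 change -0.62). That call was lost with DESeq2 size factors. Ifit2, which had fallen with C/EBPαWT, was at 18.4 and 18.4 CPM at 0 hpi, 22.1 and 22.6 at 6 hpi and 40.2 and 42.7 at 18 hpi (log2 change 1.12 ± 0.07, adjusted p = 7.99e-16). Trim30a did not fall, at 28.2 and 24.7 CPM at 0 hpi and 26.5 and 26.5 at 18 hpi, and Parp14 went from 43.3 and 42.8 to 85.8 and 84.6.

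Against C/EBPαWT, with raw counts of both deposits in 1 fit, 13 members changed more with C/EBPαR35K at 1 hpi (12% of all genes called) and 18 by 3 hpi (10.1%). The number grew to 26 after 6 hr (12.3%) and 31 after 18 hr (13.4%), and 0 changed less. The count at 1 hpi was 8 without WT 0 hpi replicate 1. The set's median excess at 18 hpi was 2.02 on the log2 scale, against a median over all genes of 0.04. Mx1 had the largest excess at 18 hpi (5.40 ± 0.87, adjusted p = 2.49e-06), and the genes that fell with C/EBPαWT were included, among them Parp14 (2.47 ± 0.08) and Trim30a (1.95 ± 0.13). The 4 genes not called at 18 hpi were Eif2ak2, Ifit3b, Isg20 and Ifi35. At 120 hpi the excess had closed to a median of 0.02, with Ifi44 higher and Cmpk2 and Isg20 lower (10.3% of all genes called in either direction). That count was 5 without R35K 120 hpi replicate 1. The comparisons of C/EBPαR35A and C/EBPαR35K with C/EBPαWT share the C/EBPαWT libraries. A shift shared by all C/EBPαR35K libraries cancels in this test. A time course that differed between the deposits cannot be told apart from the construct.

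**Figure D4:**
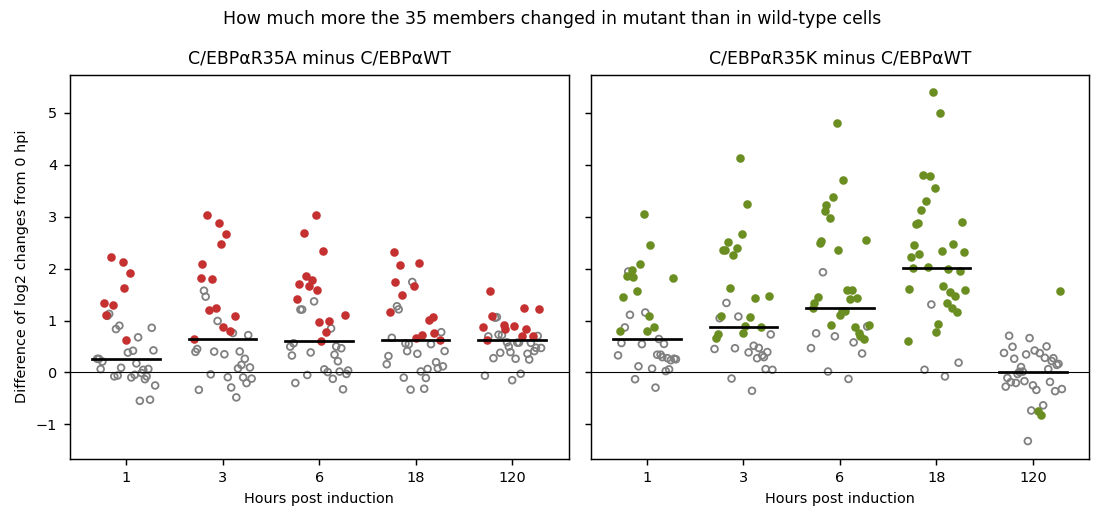
Difference between mutant and C/EBPαWT cells in the log2 change from 0 hpi, for each of the 35 genes (points) by hours post induction. Filled points were called, bars mark the median of the set. The C/EBPαR35K median reaches 2.02 at 18 hpi and 0.02 at 120 hpi, while the C/EBPαR35A median stays between 0.60 and 0.64 from 3 to 120 hpi. Both panels use the same C/EBPαWT libraries, and the C/EBPαR35K libraries come from a deposit of their own.

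The mutants were also compared with each other, again as changes from their own 0 hpi. C/EBPαR35K exceeded C/EBPαR35A in 4 members at 1 hpi (Ddx60, Bst2, Herc6 and Trim30a, with 3.51% of all genes higher), 1 at 3 hpi (Ddx60, 2.11%), 13 at 6 hpi (3.9%) and 23 at 18 hpi (2.18%). The largest differences at 18 hpi were those of Mx1 (3.63 ± 0.87, adjusted p = 0.00198), Ifit3 (3.22 ± 0.42, adjusted p = 4.53e-08) and Rsad2 (2.87 ± 0.72, adjusted p = 0.00312). Ifit3 stood at 13 and 11.1 CPM at 18 hpi with C/EBPαR35K and at 1.73 and 2.25 with C/EBPαR35A. At 120 hpi the order turned, with 10 members lower in C/EBPαR35K (0.771% of all genes lower) and 0 higher, Ifit2, Isg15, Usp18 and Zbp1 among them. Zbp1 was at 98.3 and 89.9 CPM with C/EBPαR35K and at 170 and 174 with C/EBPαR35A. This fit was added after the data had been seen. Here too construct and deposit cannot be told apart.

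The early course was set beside the ISRE core as a description. Of the 15 genes with the core, 6 were higher and 2 lower at 18 hpi in C/EBPαWT cells, with a median log2 change of 0.35. Of the 11 genes with a promoter but no core, 1 was higher and 7 lower, with a median of -0.86. Over all genes 23.9% were higher and 23.2% lower. A gene counted as holding the core if any of its promoters did. The lone riser without the core was Oasl1, whose promoter is printed above, and Trim30a fell with 1 match. At 120 hpi all genes of both kinds were higher, with medians of 4.61 and 2.27. In C/EBPαR35K cells at 1 hpi the counts higher were 10 of 15 and 2 of 11 (15.5% of all genes). Genes with a lower starting level had larger changes: across the 35 genes the level per kilobase at 0 hpi and the log2 change at 120 hpi in C/EBPαWT cells had a Spearman rho of -0.797, as a description over genes that share the same libraries and whose starting level enters both measures.

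No interferon gene was expressed at a level that could be tested. The 16 interferon genes in the tables had at most 6 counts in any library, 0 of them exceeded 10, and none passed the filter. Ifnb1, the type I interferon that macrophages make first, had 0 counts in each library at 0 hpi and 6 and 4 counts in C/EBPαWT cells at 120 hpi. With C/EBPαR35K it had 1 and 4 counts at 3 hpi, again 1 and 4 at 6 hpi, 3 and 0 at 18 hpi and 3 and 2 at 120 hpi. With C/EBPαR35A it had 0 and 3 counts at 120 hpi. Changes of the interferon genes were not tested. Of the 11 receptor, kinase and transducer genes, 8 were higher and 1 lower at 120 hpi in C/EBPαWT cells (23.1% and 40.2% of all genes). The counts were 9 and 1 with either mutant (24.2% and 39% with C/EBPαR35A, 25.4% and 38.5% with C/EBPαR35K). Ifnar1 and Ifnar2 were higher at 120 hpi with C/EBPαWT (log2 change 1.76 and 1.60), as was Tyk2 (2.14), while Jak1 was not called (0.39).

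Irf7, a regulatory factor that interferon induces and that drives interferon genes, was called higher at each time in each construct. It stood at 1.58 and 2.71 CPM at 0 hpi, 3.74 and 3.44 at 1 hpi, 3.76 and 3.82 at 18 hpi and 125 and 117 at 120 hpi with C/EBPαWT, and at 8.09 and 8.72 (1 hpi), 8.09 and 8.85 (18 hpi) and 299 and 299 CPM (120 hpi) with C/EBPαR35A. With C/EBPαR35K it was at 13 and 10.7 CPM at 1 hpi and 23.2 and 24.8 at 18 hpi. Irf9, the DNA-binding partner of Stat2, was lower with C/EBPαWT at each time up to 18 hpi (log2 change -0.59 at 1 hpi) and not called with C/EBPαR35K until 120 hpi. The plot of 6 regulators gives each library.

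**Figure D5:**
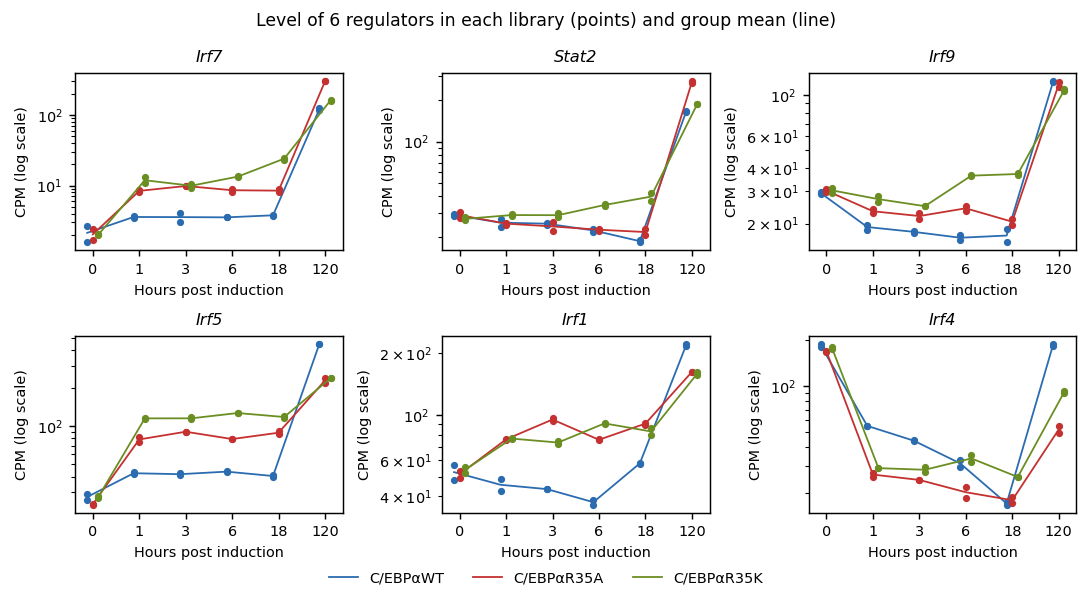
Level (CPM, log scale) of Irf7, Stat2, Irf9, Irf5, Irf1 and Irf4 in each library (points) and the group mean (line) against hours post induction (evenly spaced, not to scale). Irf7 rises by 1 hpi in all constructs and to 125 and 117 CPM at 120 hpi in C/EBPαWT, Stat2 (a call lost with DESeq2) and Irf9 are lower at 18 hpi in C/EBPαWT, and Irf4 is lower from 1 to 18 hpi in all constructs.

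Wider lists of interferon-induced genes were counted in the same fits. Of 82 further type I interferon-induced genes tested, 22 were higher and 13 lower at 1 hpi with C/EBPαWT (10.7% and 9.27% of all genes), 22 and 34 at 18 hpi (23.9% and 23.2%), and 65 and 3 at 120 hpi (23.1% and 40.2%). The count higher at 18 hpi was near the share over all genes. Against C/EBPαWT, 24 of them changed more at 18 hpi with C/EBPαR35A (5.47% of all genes more and 2.89% less). With C/EBPαR35K 47 did (8.95% more and 4.45% less), and 0 changed less with either mutant. The interferon gamma-induced GTPases attack the vacuoles of intracellular pathogens. Of 17 tested, 0 were higher and 7 lower at 1 hpi with C/EBPαWT (9.27% of all genes lower), 0 and 12 at 18 hpi (23.2% lower) and 16 and 0 at 120 hpi (23.1% higher). With C/EBPαR35K 5 were higher and 3 lower at 18 hpi (18.4% and 20.5% of all genes).

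Other RNA moved beside these results. The fibroblast markers rose with C/EBPαWT as the risers did (13 of 15 higher at 1 hpi, 14 at 18 hpi, against 10.7% and 23.9% of all genes). They fell by 120 hpi (14 lower, against 40.2% of all genes) when the whole set rose. With C/EBPαR35K 9 of 15 were higher at 1 hpi and 6 at 18 hpi (15.5% and 18.4% of all genes). The change from 0 hpi to 18 hpi was smaller than with C/EBPαWT for 9 of 15 and larger for 0 (4.45% and 8.95% of all genes). Of the 35 interferon-stimulated genes, 31 changed more. The macrophage markers summed to 4517 to 4534 CPM with C/EBPαR35A and to 9166 to 9325 with C/EBPαR35K at 1 hpi, against 1143 to 1152 with C/EBPαWT. The part of cell composition in these differences was not tested.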

How the data were processed

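Count tables of 36 stranded poly(A) RNA-seq libraries (single-end HiSeq reads) were used. The authors aligned reads with STAR 2.5.0a to mm10 and deposited raw counts per gene from STAR's gene counting, with no normalization. The strand column and the annotation release were not given in the sources used here. The authors also deposited log2 values, which were compared with the counts (19067 genes, all 35 members) and not used in tests. The submitters' processing notes further name FastQC and DESeq2 1.14.1.

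From the counts, levels were computed as CPM with TMM factors over all libraries (0.79 to 1.09, and 0.79 to 0.8 at 120 hpi). The test was edgeR 4.0.16 (R 4.3.3, limma 3.58.1), quasi-likelihood, with TMM and filterByExpr, fitted over all genes and Benjamini-Hochberg adjusted over all of them. C/EBPαWT and C/EBPαR35A libraries shared a fit (16988 genes), C/EBPαR35K libraries had their own (16434 genes), and joint fits of raw counts served R35K against WT (16979 genes) and R35A (17001 genes). A call needed a fold change of 1.5 and an adjusted p of 0.05. Errors of log2 changes are standard errors. Ratios of genes with few counts at 0 hpi are of summed counts with exact 95% intervals.

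All 35 genes could be named. Values per library were given for the gene with the highest level per kilobase in each role, the 6 largest changes at 120 hpi in C/EBPαWT cells and the 6 largest differences of C/EBPαR35A at 1 hpi. Values of Ifit3 were added after they had been seen. The rule for the 35 genes uses symbols and no measured value, but the 35 genes and the lists were chosen with earlier results of these data known. Depth was 13044456 to 23131776 counts. On simulated data the C/EBPαR35K change at 18 hpi (15524 genes) recovered 43.3% of 1.5-fold and 98.5% of 2-fold changes. The difference between C/EBPαR35A and C/EBPαWT at 18 hpi (15978 genes) recovered 40.3% and 86.6%. That between C/EBPαR35K and C/EBPαWT (15945 genes) recovered 31.3% and 76.1%. A simulated 1.5-fold change lies at the call threshold itself, which limits its recovery. These shares were not split by level, so they do not give the recovery for members with few counts before induction. Alternatives were DESeq2 1.42.0, its size factors, a replicate block, no filter, the compared groups alone, a 2-fold threshold, unadjusted p and each library left out. Columns of fold changes were not used.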

Additional observations from a re-analysis of the deposited data

Results flagged for a closer look

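The change from 0 hpi differed between a mutant and C/EBPαWT, by the test of the difference itself, in several of the 35 genes at each time. With C/EBPαR35A 8, 13 and 14 genes changed more than with C/EBPαWT in the first 1, 3 and 6 hr, 13 after 18 hr and 12 after 120 hr. Of all genes 14%, 13%, 10.3%, 8.36% and 14.5% were called in either direction at these times. With C/EBPαR35K 13, 18 and 26 genes changed more in the first 1, 3 and 6 hr and 31 after 18 hr (12%, 10.1%, 12.3% and 13.4% of all genes called). After 120 hr 3 differed (10.3%). Of those 3, Ifi44 changed more (1.57 ± 0.42, adjusted p = 0.0038 with edgeR), and Cmpk2 (-0.74 ± 0.20, adjusted p = 0.00359) and Isg20 (-0.82 ± 0.19, adjusted p = 0.000687) changed less. Both sets of tests use the same C/EBPαWT libraries. In those of C/EBPαR35K, construct and deposit cannot be told apart.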

How the results depend on the processing

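DESeq2 and its size factors in edgeR kept all 44 counts of called genes they were run on within 1.5 times, as did no filter on low counts and a fit of the compared groups alone for 32 counts and a joint fit of all libraries for 5. Of 577 calls of single genes, 20 were lost with DESeq2 and 18 with its size factors, and 0 turned direction. Size factors moved the median over all genes from 0.02 to 0.14 for C/EBPαWT at 18 hpi, from -0.36 to -0.20, -0.31 to -0.18 and -0.28 to -0.14 for C/EBPαWT, C/EBPαR35A and C/EBPαR35K at 120 hpi, and from 0.04 to -0.06 for the C/EBPαR35K difference at 18 hpi. With a 2-fold threshold the C/EBPαWT counts were 8, 5 and 13 at 3, 6 and 18 hpi, the direct C/EBPαR35A counts 9, 13, 13 and 3 at 1, 6, 18 and 120 hpi, and the differences in change at 120 hpi 4 (C/EBPαR35A) and 1 (C/EBPαR35K), since fewer genes can pass it. With an unadjusted p, 1 gene differed between C/EBPαR35K and C/EBPαWT at 0 hpi.

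With 1 library left out, C/EBPαWT counts ranged over 11 to 12, 13 to 17, 12 to 15, 19 to 21 and 35 to 35 in order of time. The C/EBPαR35A counts ranged over 19 to 20, 18 to 21, 18 to 20, 17 to 19 and 35 to 35, and the C/EBPαR35K counts over 19 to 19, 19 to 20, 22 to 23, 25 to 27 and 35 to 35. The direct C/EBPαR35A counts ranged over 0 to 0 at 0 hpi, then 14 to 16, 18 to 19, 15 to 20, 17 to 20 and 19 to 21, and those of C/EBPαR35K at 0 hpi over 0 to 0. The differences in change ranged over 6 to 8, 9 to 13, 8 to 14, 10 to 13 and 9 to 12 (C/EBPαR35A) and over 8 to 15, 12 to 18, 24 to 26, 28 to 31 and 2 to 5 (C/EBPαR35K).

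Replicate numbers gave no clear pairing of the libraries: deviations of same-numbered libraries had correlations of -0.498 to 0.312 over 153 pairs of groups, with 17 above 0.1. These were 7 of 45 pairs within a construct and 10 of 108 between constructs. The check cannot exclude a pairing, since replicates differed by little more than counting noise in many groups. A replicate block moved the C/EBPαWT count at 3 hpi from 17 to 16 and the C/EBPαR35A count at 18 hpi from 19 to 18, and no other count. Few counts at 0 hpi limit the differences for Oas2, Oas3, Mx1 and Rsad2.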
